A study of Homo sapiens with 7 samples.

Results

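The windows described here are the 26 stretches of 1 Mb, on a fixed grid along chromosomes 1 to 22, X and Y of the human genome (build hg19), that were densest in peaks of linker histone H1 in wild-type cells. They were chosen by their wild-type counts: a window had to hold at least 8 H1 peaks in wild-type replicate 1 and at least 8 in wild-type replicate 2. A peak was counted in the window where it starts. A peak of any list was found in 2326 windows in all, and the 26 held 888 of the 14201 peaks of the 4 H1 lists. The wild-type counts of the windows are therefore a description of the choice and are given without a test.

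All libraries were made by CUT&Tag, in which an antibody brings a transposase to chromatin so that the DNA around the bound protein is cut and tagged. The cells were HCT116, an established human colon cancer line, and 10000 cells went into each assay. H1 was profiled in 2 wild-type libraries (titled NC) and in 2 libraries of the NuMA depletion genotype (titled AID). NuMA itself was profiled in wild-type cells, in 1 library with a C-terminal and in 1 with an N-terminal antibody. A wild-type immunoglobulin G control was not analysed here. The titles do not spell out AID or NC, and a difference of clone or treatment between these cells cannot be told apart from the loss of NuMA. The labels also do not say whether replicates were separate cultures, so p-values reflect only how these libraries vary, which may be technical.

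Histone H1 binds the nucleosome where DNA enters and leaves it, together with the linker DNA between nucleosomes, and is known for helping chromatin fold into compact fibres. NuMA is a large coiled-coil protein that forms part of the structure of the interphase nucleus and gathers the poles of the mitotic spindle. The series asks whether H1 binding to chromatin depends on NuMA. Some megabases of a human chromosome are crowded with genes, while others, next to the centromeres or near the chromosome ends, are built of repeated DNA in which near-identical units follow each other. Reads from such repeats can often be placed on several copies, and a reference assembly may hold fewer copies than the cells do.

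The lists differed in length and in the depth read from them. They held 4552 and 5553 H1 peaks in wild type, 2616 and 1480 after depletion, 14240 NuMA peaks with the C-terminal and 19518 with the N-terminal antibody. No read totals come with the lists, so depth was read from the lowest local background of each list divided by its shortest peak. Relative to wild-type replicate 1 it was 99.9% in wild-type replicate 2, 58.6% and 58.5% in the depleted libraries, and 30% (C-terminal) and 49.7% (N-terminal) in the NuMA libraries. Group and depth cannot be told apart, so counts after depletion are given beside their share of the list, as peaks per 1000 peaks of that list.

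The dense windows were spread over 11 chromosomes and are named here by chromosome, with a letter where a chromosome has several. Chromosomes 1, 8, 9, 13 and Y had 1 window each, starting at 228, 86, 66, 114 and 13 Mb. On chromosome 2 they started at 20 Mb (2a), 92 Mb (2b) and 133 Mb (2c), and on chromosome 4 at 9 Mb (4a), 49 Mb (4b) and 190 Mb (4c). Chromosome 10 had windows at 42 Mb (10a), 102 Mb (10b), 121 Mb (10c) and 124 Mb (10d). On chromosome 14 they lay at 21 Mb (14a), 23 Mb (14b), 24 Mb (14c), 61 Mb (14d) and 106 Mb (14e), on chromosome 16 at 33 Mb (16a) and 85 Mb (16b), and on chromosome 17 at 45 Mb (17a), 46 Mb (17b), 73 Mb (17c) and 74 Mb (17d). Windows 2b, 4b, 10a and Y lie beside the centromeres of their chromosomes, 4c and 14e lie towards the ends of long arms, and 17a with 17b and 17c with 17d are direct neighbours. The gene tables used here are of another build, so no gene was placed in a window.

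After NuMA depletion the dense windows still held several times more H1 peaks than other windows. Depleted replicate 1 had 173 peaks in them, 6.65 per window against 1.06 per window elsewhere, a ratio of 6.26. Depleted replicate 2 had 130, 5 per window against 0.587, a ratio of 8.52. These lists took no part in the choice of the windows. In the wild-type lists, which did, the windows held 281 and 304 peaks, 10.8 and 11.7 per window, and the ratios were 5.82 and 5.12. As a share of the list this was 6.17% and 5.47% in wild type and 6.61% and 8.78% after depletion, or 5.82% ± 0.494 and 7.70% ± 1.53 (SD, n = 2), and the mean depleted ratio was 7.39 ± 1.59 (SD, n = 2). With wild-type replicate 2 alone choosing the windows, 65 were found and that ratio was 4.66. The number of peaks in the windows was 292.5 ± 16.3 in wild type and 151.5 ± 30.4 after depletion (SD, n = 2), so the count was lower after depletion while the share of the list was not. No test was made of these shares, because the wild-type counts set the choice.

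**Figure D1:**
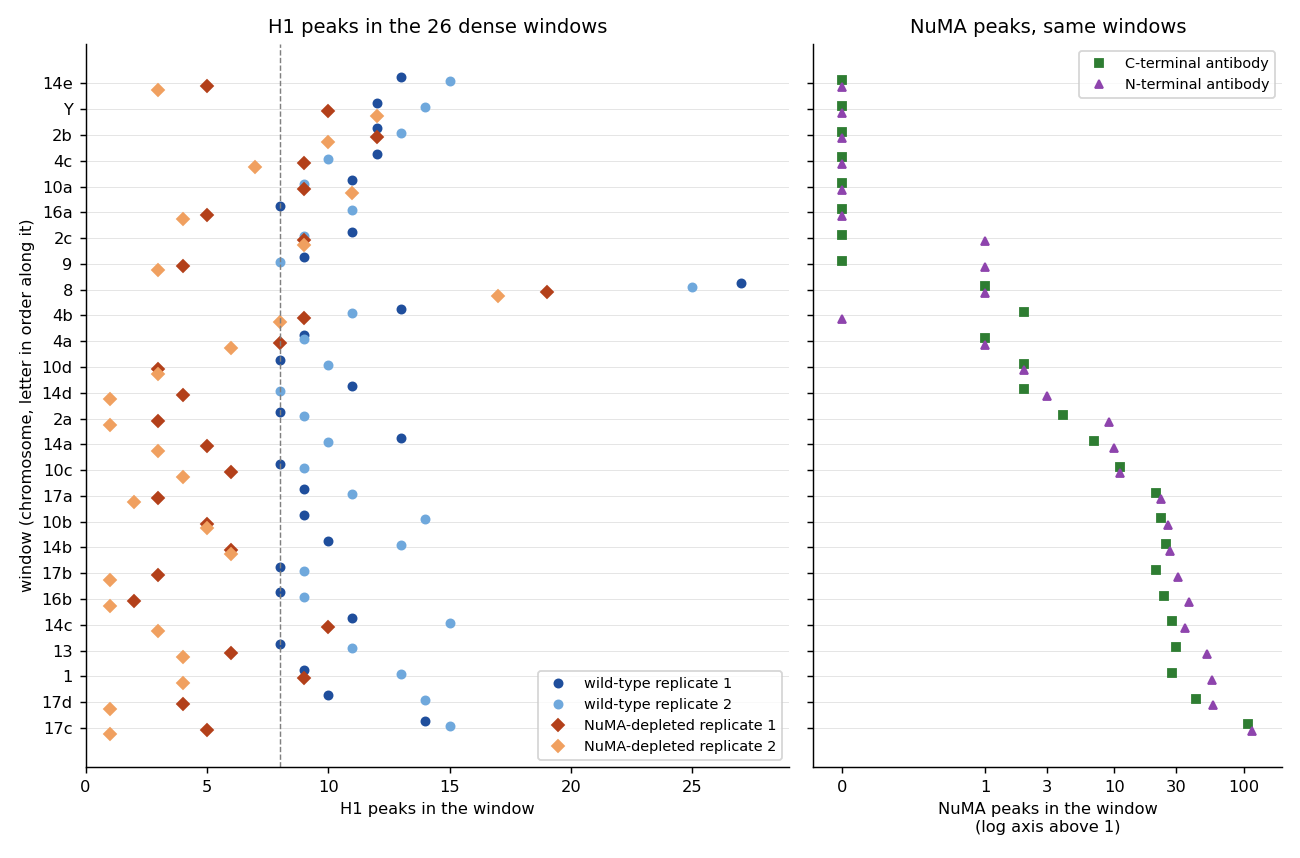
Number of H1 peaks in each of the 26 dense windows in the 4 H1 lists (left) and of NuMA peaks with each antibody (right, log axis above 1), with windows ordered from few to many NuMA peaks; the dashed line marks the threshold of 8 that both wild-type lists had to reach. Window 8 stands apart with 27 and 25 wild-type peaks, and the depleted counts lie close to the wild-type ones in several windows at the top and well to the left of them in those of chromosome 17 at the bottom.

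The windows just inside the threshold looked much like those just outside. In the 9 windows whose lower wild-type count was 8, depleted replicate 1 had 2 to 6 peaks (median 4) and depleted replicate 2 had 1 to 4 (median 3). In the 12 windows whose lower wild-type count was 7, these were 2 to 6 (median 4.5) and 0 to 7 (median 2). The threshold thus cuts through a continuous range of counts. The windows most crowded after depletion were nearly all among the chosen ones: 6 windows had at least 8 peaks in each depleted list, and all 6 were dense in wild type. Of the 10 windows with at least 6 in each depleted list, 9 were dense in wild type. At a lower limit, suited to the shorter depleted lists, the overlap was smaller. Of the 25 windows with at least 4 in each depleted list, 14 were dense in wild type and 11 were not.

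NuMA peaks were unevenly spread over the dense windows. Together the windows held 381 C-terminal peaks, 14.7 per window against 6.03 elsewhere (ratio 2.43), and 502 N-terminal peaks, 19.3 against 8.27 (ratio 2.34). Yet 13 of the 26 windows had at most 3 peaks in each NuMA list, 8 and 9 peaks in all, and the other 13 held 373 and 493. A division at 3 peaks was made after these values were seen, and the windows are called NuMA-poor (14e, Y, 2b, 4c, 10a, 16a, 2c, 9, 8, 4b, 4a, 10d and 14d) and NuMA-rich below. With 1 library per antibody the NuMA values have no replicate check.

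Window 8, at 86 to 87 Mb, was the most crowded, with 27 and 25 wild-type H1 peaks and 19 and 17 after depletion. Per 1000 peaks of the list this was 5.93 and 4.5 in wild type and 7.26 and 11.5 after depletion, so its share of the list was above both wild-type values in both depleted lists. Each NuMA antibody had 1 peak in it. Most of its H1 peaks lay in a cluster, the longest run of wild-type summits less than 20 kb from the next, which went from 86727619 to 86839948 in wild-type replicate 1. With 1 kb on either side it held 19 peaks in each wild-type list and 14 and 11 in the depleted lists. The cluster spanned about the same stretch in every list, 112.3 and 112.0 kb in wild type and 112.4 and 112.2 kb after depletion, and lost peaks from within rather than at its ends.

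Some summits of window 8 recurred at a regular distance. Spacing was called regular where at least 4 gaps of at least 1000 bp between neighbouring summits of a list lay within 2% of one gap. In wild-type replicate 2 of window 8, 5 gaps shared a distance of 6193 bp. In depleted replicate 1, 4 gaps shared 12366 bp, and in depleted replicate 2, 3 gaps lay around 12528 bp. Both depleted distances are close to 2 times the wild-type one, but the 3 gaps of depleted replicate 2 fall short of the rule. Windows 10b, 14a, 17b and 17d also had 3 gaps within 2% of each other in a wild-type list, at 100154 to 167780 bp. Wild-type replicate 1 had only 2 gaps, around 6194.5 bp. Among the 26 windows, window 8 alone met the rule, and over all 383 windows with at least 5 peaks in an H1 list the same 1 window did, which is 0.261%. Window 8 also had the most gaps of the 26, with 26 and 24 in wild type. The rule does not adjust for the number of gaps, so 0.261% is no like-for-like background. With distances taken between peak starts in place of summits, 0 windows met it, so the call rests on the summits.

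**Figure D2:**
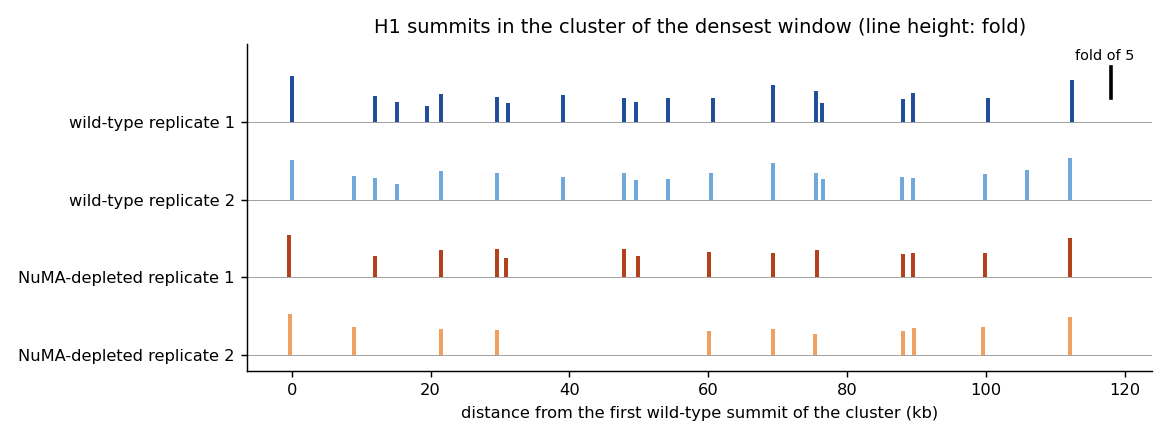
Positions of H1 summits in the cluster of window 8 in each of the 4 H1 lists, in kb from the first wild-type summit, with the height of each line proportional to the deposited fold of the peak. The first and the last summit are the tallest or nearly so and recur in all 4 lists, and several positions between them are empty after depletion.

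Distances between all pairs of summits, an analysis chosen after the gaps were seen, gave similar distances for both wild-type lists. Of the pairs 2 to 40 kb apart in window 8, the most frequent distance (within 150 bp) was 6343 bp in wild-type replicate 1, with 5 of 107 pairs, and 6193 bp in wild-type replicate 2, with 7 of 102. In the depleted lists it was 12343 bp (5 of 53 pairs) and 12521 bp (4 of 33). Pairs share summits and are not independent, so no test was made. Within the cluster, the bin from 6 to 6.5 kb held 4 of 97 pairs in wild-type replicate 1 against a mean of 1.28 per bin, and 7 of 93 against 1.22 in replicate 2. Single gaps followed the repeat only in part. In wild type, 1 and 4 of the 18 gaps lay within 2% of 6193 bp and none within 2% of 12386 bp. In the depleted lists 3 of 13 gaps (12204 to 12460 bp) and 3 of 10 gaps (12514 to 12545 bp) lay within 2% of 12386 bp. For replicate 1 this contrast rests partly on the 2% limit. Wild-type replicate 1 had neighbouring summits at 0 and 12.03 kb and at 100.316 and 112.329 kb, gaps just short of it. Depleted replicate 1 had summits nearby, at −0.435 and 12.025 kb and at 99.803 and 112.007 kb, with gaps inside it. Depleted replicate 2 also had 1 gap within 2% of 6193 bp, and the other gaps matched neither distance.

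**Figure D3:**
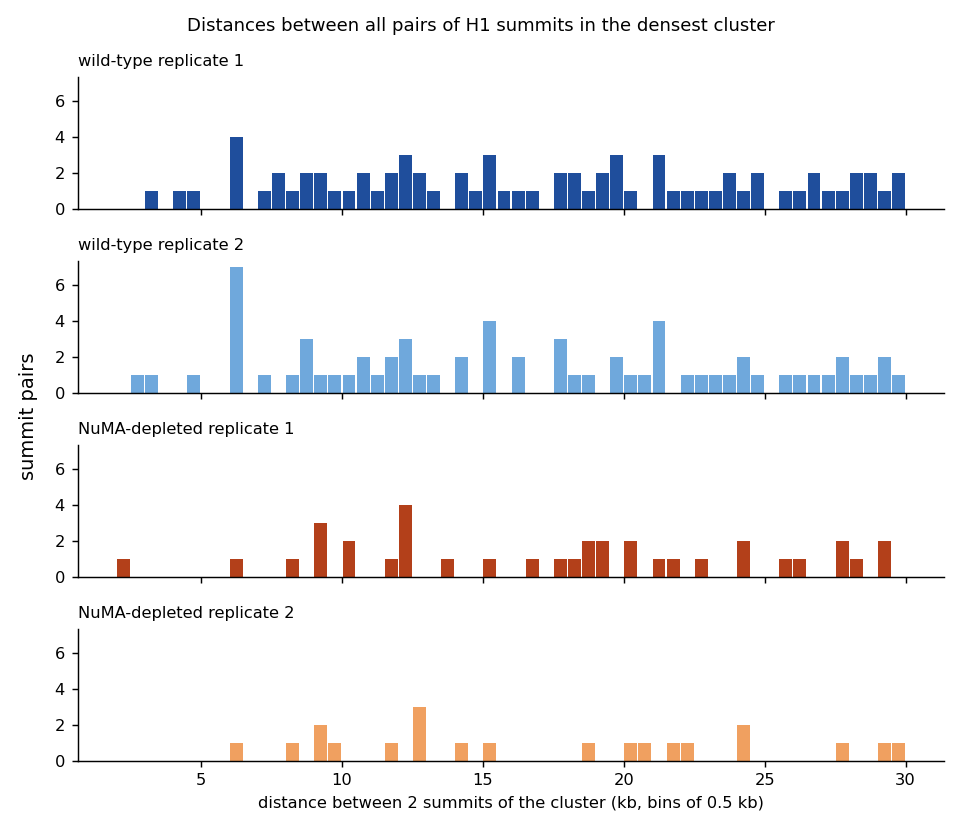
Number of summit pairs by their distance, in bins of 0.5 kb, for the cluster of window 8 in each of the 4 H1 lists. The tallest bar is at 6 to 6.5 kb in both wild-type lists (4 and 7 pairs), at 12 to 12.5 kb in depleted replicate 1 (4 pairs) and at 12.5 to 13 kb in depleted replicate 2 (3 pairs).

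Peaks of the cluster were broad, of modest fold and on high background. The fold, as deposited by the authors, is the number of fragments at the summit plus 1 over the local background plus 1. Its median in the cluster was 3.88 and 4.14 in wild type and 4.01 and 4.26 after depletion, below the medians outside the dense windows in every list. Widths had medians of 740 and 883 bp in wild type and 1105.5 and 822 bp after depletion. The median number of fragments recovered at a summit was 69, 97, 88 and 48 in the order wild-type replicate 1 and 2 and depleted replicate 1 and 2. The local background, worked out per peak from its fold and −log10 p, had medians of 17.7, 20.3, 26.7 and 20.1 times the lowest of each list. No peak of the cluster had less than 9.38 times, so the background was high at all of them. Whether this background came from the H1 library or from a control is not given. In the RefSeq gene table of GRCh38.p14, chromosome 8 has 11 genes named REXO1L, a family known as a tandem array on the long arm, of which 4 follow each other directly. REXO1L was looked up after the spacing was seen, and whether the cluster lies on it cannot be read from tables of another build. Other families were looked up as well: on chromosome 4 USP17L (23 genes, longest run 12) and DUX4 (10 genes, run of 8), and on chromosome 1 RNA5S (17 genes, run of 16).

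Several other NuMA-poor windows, though not all, were compact as well, without meeting the rule for regular spacing. Window Y, beside the centromere at 13 to 14 Mb, had 12 and 14 wild-type peaks and 10 and 12 after depletion, with no NuMA peak of either antibody. Per 1000 peaks of the list this was 2.64 and 2.52 in wild type and 3.82 and 8.11 after depletion. All its peaks lay within 28.1 kb in each of the 4 lists, with median gaps of 1.78, 1.76, 1.85 and 1.78 kb. Its local background was 58.5 and 53.0 times the lowest of the wild-type lists, and its median fold was 3.17, 3.73, 3.16 and 3.34, the lowest of the windows in wild-type replicate 1. The Y peaks were thus of low fold over a high local background, and the called peaks spanned the same stretch in both groups.

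Window 2b, at 92 to 93 Mb beside the centromere of chromosome 2, had 12 and 13 wild-type peaks and 12 and 10 after depletion (2.64 and 2.34 against 4.59 and 6.76 per 1000), and no NuMA peak. The median gap was 4.76 and 3.06 kb in wild type and 3.22 and 5.89 kb after depletion, and the local background of the wild-type peaks was 53.3 and 63.3 times the lowest of the list. Its most frequent pair distance was 5851, 5903, 5831 and 5886 bp in the 4 lists, with 3 or 4 pairs each, so the lists pointed to a similar distance on few pairs. Window 10a, at 42 to 43 Mb beside the centromere of chromosome 10, had 11 and 9 wild-type peaks and 9 and 11 after depletion, or 2.42 and 1.62 against 3.44 and 7.43 per 1000 peaks of the list. Gaps there had medians of 5.28, 5.26, 5.27 and 4.8 kb, and the background was 25 and 40 times the lowest in wild type.

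Window 2c, at 133 to 134 Mb, had 11 and 9 wild-type peaks and 9 in each depleted list (2.42 and 1.62 against 3.44 and 6.08 per 1000). All 9 of its regions shared by the wild-type lists were called in both depleted lists. The most frequent pair distance was 6421, 6373, 6356 and 6409 bp, each with 3 pairs. Window 4b, at 49 to 50 Mb beside the chromosome 4 centromere, had 13 and 11 wild-type peaks and 9 and 8 after depletion (2.86 and 1.98 against 3.44 and 5.41 per 1000), with median gaps of 10.2 and 11.2 kb in wild type. Of the regions shared by the wild-type lists, a depleted list called 11 of 12 in window Y, 10 of 11 in 2b, 9 of 9 in 10a and 9 of 10 in 4b, so few positions were lost.

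Not every NuMA-poor window behaved this way. Window 14e, at 106 to 107 Mb near the end of chromosome 14, had 13 and 15 wild-type peaks and 5 and 3 after depletion (2.86 and 2.70 against 1.91 and 2.03 per 1000), with no NuMA peak. Its median gaps were 53.2 and 28.5 kb in wild type, so its peaks were spread out. Of its 8 regions shared by the wild-type lists, 3 were called in a depleted list and none in both. Window 14d had 11 and 8 wild-type peaks and 4 and 1 after depletion (2.42 and 1.44 against 1.53 and 0.676 per 1000, which overlap), with 2 and 3 NuMA peaks. Window 4c had median gaps of 81.4 and 81.5 kb in wild type, yet a depleted list called 10 of its 10 shared regions. In window 9 the wild-type gaps had medians of 41.3 and 35.4 kb, and in window 10d of 30.8 and 46.7 kb. A depleted list called 3 of 5 shared regions in window 9 and 2 of 6 in window 10d.

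The 4 windows of chromosome 17, all NuMA-rich, had widely spaced H1 peaks and a lower share of both depleted lists. Window 17c, at 73 to 74 Mb, had 108 C-terminal and 116 N-terminal NuMA peaks, the most of the 26, and 14 and 15 wild-type H1 peaks with median gaps of 35.4 and 48.9 kb. After depletion it held 5 and 1, or 1.91 and 0.676 per 1000 peaks of the list against 3.08 and 2.70 in wild type. The local background of its wild-type peaks was 2.51 and 2.45 times the lowest. Its neighbour 17d, with 43 and 58 NuMA peaks, had 10 and 14 wild-type and 4 and 1 depleted H1 peaks (2.197 and 2.52 against 1.53 and 0.676 per 1000). All 4 had 3 to 5 peaks in depleted replicate 1 and 1 or 2 in depleted replicate 2. Windows 1 and 13, next in number of NuMA peaks (28 and 57, 30 and 52), went the other way, with 1.42 and 1.34 times the wild-type share after depletion. In window 1, 6 of 6 shared wild-type regions were called in a depleted list and 55% of the wild-type gaps were under 20 kb, and in window 13, 5 of 7 were called.

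In windows 14c, 10b and 14a the share of the list overlapped between the groups. Window 14c, at 24 to 25 Mb with 28 and 35 NuMA peaks, had 11 and 15 wild-type H1 peaks and 10 and 3 after depletion (2.42 and 2.70 against 3.82 and 2.03 per 1000), so the depleted libraries lay on either side of wild type. Window 10b, at 102 to 103 Mb with 23 and 26 NuMA peaks, had 9 and 14 wild-type and 5 and 5 depleted peaks (1.98 and 2.52 against 1.91 and 3.38 per 1000). Window 14a, at 21 to 22 Mb with 7 and 10 NuMA peaks, had 13 and 10 wild-type and 5 and 3 depleted peaks (2.86 and 1.801 against 1.91 and 2.03 per 1000). Window 10c, with 11 NuMA peaks of each antibody, had a higher share in both depleted lists (1.76 and 1.62 against 2.29 and 2.70 per 1000).

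Over the 26 windows, the ratio of depleted to wild-type peaks per 1000 of the list ran from 0.426 in window 16b to 2.69 in window 10a. It had a median of 1.83 (0.572 to 2.69) in the 13 NuMA-poor windows and of 0.846 (0.426 to 1.48) in the 13 NuMA-rich ones. As a description over 26 windows of the same libraries, its Spearman correlation was -0.59 with the number of NuMA peaks and 0.68 with the wild-type local background. NuMA-poor windows were also the ones of high background, with a median of 7.22 times the lowest (2.42 to 58.3) against 2.99 (2.14 to 18.6), and the part of either in the ratio was not tested. The wild-type counts in this ratio chose the windows, so its level is not read against 1.

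**Figure D4:**
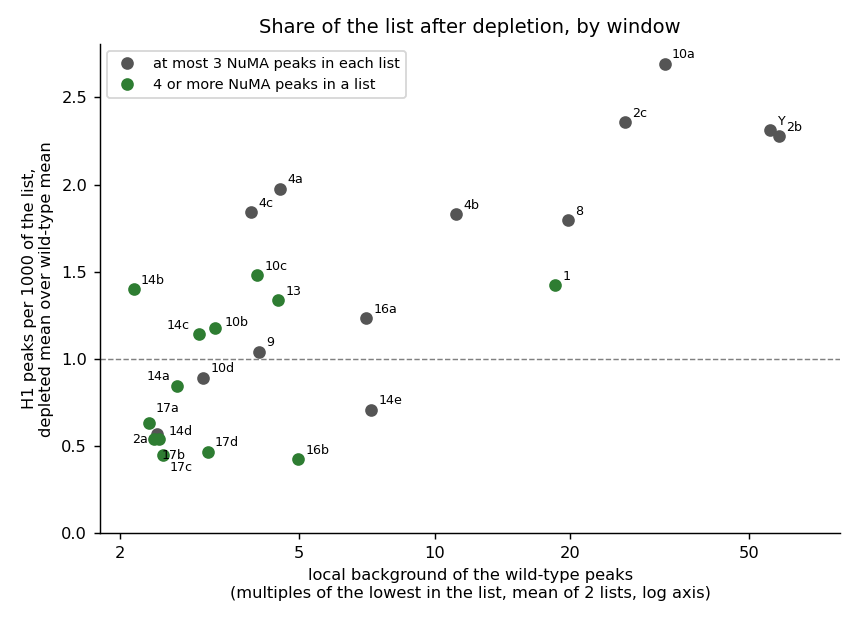
Ratio of H1 peaks per 1000 of the list, depleted over wild-type mean, against the local background of the wild-type peaks (multiples of the lowest in the list, mean of 2 lists, log axis), with each of the 26 windows a point coloured by its number of NuMA peaks. Windows 2b, 2c, 10a and Y lie at the upper right with ratios from 2.28 to 2.69, and the 4 windows of chromosome 17 lie at the lower left with ratios from 0.448 to 0.631.

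Separation of the groups by share of the list was counted window by window. The share was lower in both depleted lists than in both wild-type lists in 7 of the 26 windows (26.9%): 2a, 14e, 16b and the 4 of chromosome 17. Over all 1875 windows with a peak in at least 2 H1 lists this held for 23%. The share was higher in both depleted lists in 11 of the 26 (42.3%): 1, 2b, 2c, 4a, 4b, 4c, 8, 10a, 10c, 13 and Y. Over the same 1875 windows this held for 17.3%. Among NuMA-poor windows 1 of 13 was lower and 8 of 13 were higher, and among NuMA-rich windows 6 of 13 were lower and 3 of 13 higher. The rule used the wild-type side of this contrast, so nothing is read from the counts.

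H1 regions of the dense windows that both wild-type lists called were often called after depletion as well. Of 213 such regions, 159 (74.6%, 95% Wilson interval 68.4 to 80.0) were called in at least 1 depleted list, against 1326 of 2272 (58.4%, 56.3 to 60.4) in the rest of the genome. Depleted replicate 1 held 66.2% of them against 49.1% outside, and depleted replicate 2 held 52.1% against 31.3%, so both depleted libraries had the higher share inside. These intervals cover counting error only, and neighbouring regions of a window are not independent. Starting from the peaks of wild-type replicate 2 alone, in the 65 windows it chose, the share was 41.1% against 34.2% outside.

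Counted over regions, the share was larger in the NuMA-poor windows. There, 102 of 126 shared wild-type regions (81.0%, 73.2 to 86.9) were called after depletion, 60.3% of them in both depleted lists. In the NuMA-rich windows it was 57 of 87 (65.5%, 55.1 to 74.7), with 19.5% in both depleted lists. Single windows of the classes overlapped, from 33.3% to 100% (median 88.9%) and from 40% to 100% (median 66.7%). Over the 26 windows the Spearman correlation of the kept share was -0.27 with NuMA peaks and 0.54 with the wild-type local background, as a description. Outside the dense windows the shares were 62.6% (59.7 to 65.4) in windows with at most 3 NuMA peaks in each list and 54.4% (51.6 to 57.2) in the others. The wild-type lists also shared more peaks with each other in the NuMA-poor windows: 80.8% of the peaks of replicate 1 there overlapped one of replicate 2, against 69.6% in NuMA-rich windows and 53.2% outside. The median local background of wild-type peaks was 9.87 and 12.7 times the lowest in NuMA-poor and 2.83 and 3.08 times in NuMA-rich windows. When only peaks with a background up to 5 times the lowest were counted and the windows found again, an alternative chosen after the data were seen, 10 windows were left, all of them among the 26, and 59.7% of their shared regions were kept against 57.1% outside. Of these 10 windows 9 were NuMA-rich and 1 was NuMA-poor, so background and NuMA class changed together, and the part of each in the kept share was not tested.

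**Figure D5:**
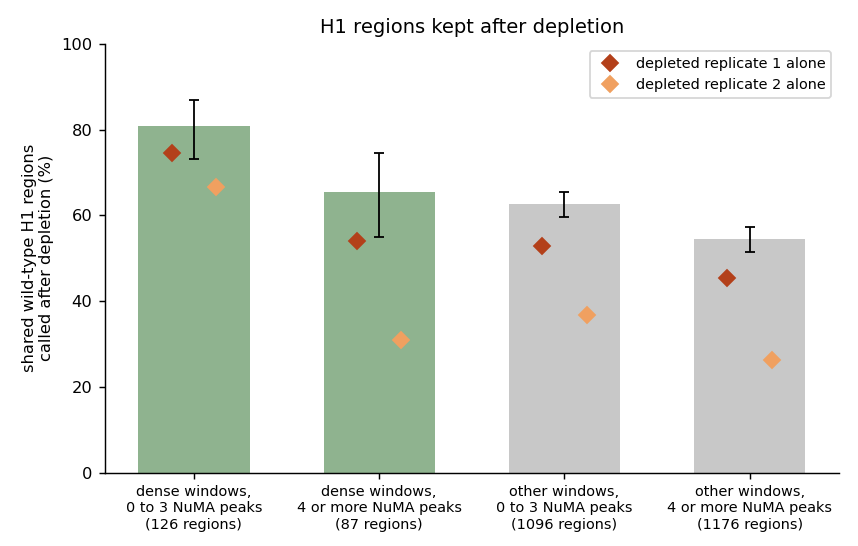
Percent of the H1 regions that both wild-type lists called that were also called in at least 1 depleted list (bars, with 95% Wilson intervals) and in each depleted list alone (diamonds), inside and outside the dense windows and by number of NuMA peaks. The bar of dense windows with 0 to 3 NuMA peaks reaches 81.0%, and the other 3 lie between 54.4% and 65.5%.

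The choice by peaks in both wild-type lists favours regions that lists share, so the next shares are a description only. Merging the 4 H1 lists gave 385 regions inside, of which 93 (24.2%) were called in all 4 lists and 143 (37.1%) in 1 list. Outside, 501 of 8211 (6.10%) were called in all 4 and 5053 (61.5%) in 1. Summits of shared regions lay close together: the median distance from the summit of wild-type replicate 1 was 37 bp in wild-type replicate 2, 48 bp in depleted replicate 1 and 31 bp in depleted replicate 2, against 57, 66 and 50 bp outside. In NuMA-poor windows these medians were 23.5, 32.5 and 17.5 bp and in NuMA-rich windows 71, 97 and 66 bp. All of these medians are shorter than the DNA wound on 1 nucleosome.

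Neighbouring H1 summits were closer together in the dense windows, as the choice by count implies. The median gap inside was 32.4 and 33.6 kb in wild type and 27.1 and 11.9 kb after depletion, against 148, 131, 172 and 182 kb outside. Gaps under 20 kb made up 43.1% and 42.8% of the gaps in wild type and 48.3% and 56.7% after depletion. Depleted replicate 2, the shortest list, therefore had the smallest pooled median inside and the largest outside. The inside medians pool the gaps of all dense windows, and windows with 1 peak left, such as 17c, gave no gap. Window by window, the median gap of depleted replicate 2 was below both wild-type values only in 2c, 10a and 16a. The pooled median therefore does not show that peaks drew closer together.

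Peaks in the dense windows had lower folds and larger widths than other peaks of the same list, to a similar extent in both groups. The median fold was 5.51 inside and 6.43 outside in wild-type replicate 1, 5.41 and 6.19 in wild-type replicate 2, 5.73 and 6.59 in depleted replicate 1, and 6.18 and 7.05 in depleted replicate 2. On the log2 scale the inside minus outside difference was −0.21 ± 0.020 in wild type and −0.20 ± 0.0061 after depletion (SD, n = 2). The depleted minus wild-type difference of 0.011 was smaller than the wild-type SD (exact two-sided permutation p = 0.667). Median widths were 452 and 397 bp, 430.5 and 363 bp, 489 and 409 bp, and 377.5 and 304 bp in the same order. The log2 difference was 0.22 ± 0.042 in wild type and 0.29 ± 0.039 after depletion (SD, n = 2), 0.068 apart, with both depleted values above both wild-type ones (exact two-sided permutation p = 0.333, the smallest that 2 against 2 libraries can give). Neither comparison could pass 0.05 in this design, and both changed sign with peaks of −log10 q of at least 5. Fragments at the summit had medians of 29, 29, 36 and 36 inside and 18, 18, 15 and 14 outside, and local backgrounds 3.74, 4.42, 6.14 and 11.2 times the lowest inside and 1.84, 1.95, 2.10 and 2.16 times outside.

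As the division by NuMA peaks implies, the NuMA-rich windows held all but 3 of the 285 regions called with both NuMA antibodies. H1 peaks on NuMA sites therefore lay almost wholly in the NuMA-rich windows, which is no separate result about H1. In those windows 42 of 125 peaks of wild-type replicate 1 (33.6%) and 43 of 152 of wild-type replicate 2 (28.3%) overlapped such a region, and 27 of 67 (40.3%) and 11 of 36 (30.6%) of the depleted ones. In the NuMA-poor windows 1 or 2 peaks of each list did, 0.943% to 2.13%, a share held low by the definition of the class. Over all 26 windows, a region seen by both NuMA antibodies was hit by 44 of 281 peaks of wild-type replicate 1 (15.7%, 95% Wilson interval 11.9 to 20.4) and 45 of 304 of wild-type replicate 2 (14.8%), and by 28 of 173 (16.2%) and 13 of 130 (10%) of the depleted ones. Outside, these shares were 14.9% and 11.8% in wild type and 18.3% and 13.8% after depletion, so the inside share was the higher in both wild-type and the lower in both depleted libraries. The means were 15.2% ± 0.605 inside and 13.3% ± 2.22 outside in wild type, and 13.1% ± 4.37 inside and 16.0% ± 3.20 outside after depletion (SD, n = 2). In wild type the difference of the means was larger than the SD inside and smaller than the SD outside, and after depletion it was smaller than both. Of 285 such NuMA regions in the dense windows, 55 carried an H1 peak of any list.

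Of the 5 NuMA regions of highest fold in the dense windows 4 had no H1 peak, close to the 80.7% without one over all 285. The first was 17:74487348-74488494, in window 17d, where the C-terminal list gave a fold of 15.1 and the N-terminal list 14.7. It was followed by 14:24036258-24037184 in window 14c (14.9 and 14.4), 17:45266209-45267216 in window 17a (14.2 and 14.4), and, both in window 17c, 17:73093736-73094527 (15.4 and 14.1) and 17:73124675-73125463 (13.95 and 19.8). The region in window 17a overlapped H1 peaks, with folds of 6.28 and 5.40 in wild type and no peak called after depletion.

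Of the 10 named regions called in all 4 H1 lists, 1 per window, 8 lay in NuMA-poor windows, which were 13 of the 26. Of all 93 such regions, not limited to 1 per window, 76 (81.7%) lay there. NuMA-poor windows held 156 of the 281 and 152 of the 304 wild-type H1 peaks of the dense windows. Of the depleted ones they held 106 of 173 and 94 of 130. The first named region, 9:66970988-66971599, reached 24.9 and 26.1 in wild type and 22.8 and 27.8 after depletion, far above the median of its list. The next, 4:190235481-190235973 in window 4c, had 14.4, 16.5, 12.3 and 14.7 in the same order. In window 10a, 10:42529220-42530741 had 11.1, 10.7, 9.80 and 11.97. Each fold belongs to its own list, so the order of libraries within a region shows no change of signal. In window 2b, 2:92324112-92325865 had 9.41, 9.19, 8.08 and 9.91. In window 8, 8:86132409-86133090, outside the regular cluster, had 9.83, 9.87, 10.8 and 8.06. The other 5 of the 10 were 4:49514769-49516194 (4b), 4:9369971-9370705 (4a), 2:133174017-133174563 (2c), 14:21737585-21738015 (14a) and 13:114103084-114103947 (13), whose folds ran from 6.45 to 9.84. Those on chromosomes 13 and 14 lay in NuMA-rich windows.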

How the data were processed

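The submitters' processing notes name MACS2, Bowtie2, Picard, Trim Galore and the build hg19, without versions or roles, which the sources used here do not give. Each file the authors deposited lists the peaks of 1 library, with start, end, score, fold, −log10 p, −log10 q and summit offset. The deposited score, a whole number, was not used. The fold (a ratio) and the −log10 p and −log10 q are the authors' values for each peak, used within their own list. The smallest deposited −log10 q was between 3.00 and 3.06, and peak names stated a q limit of 0.001. NuMA peak names said ChIP-seq where the labels said CUT&Tag, and the labels were followed.

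Fragments at the summit and local background were recovered from the deposited fold and −log10 p, assuming a Poisson tail. All peaks were recovered within 0.002 of the −log10 p or, where the −log10 p was large, within a wider limit in proportion to it. The relative depth rests on this and on the shortest peak standing for the fragment length. It also assumes that the local background follows the depth of the library itself, and the source of that background is not given. Peaks were placed in 1 Mb windows by their start. Overlap of 1 bp counted as shared. Chromosomes 1 to 22, X and Y were kept, and coordinates are 1-based. H1 groups were compared by exact two-sided permutation of the library labels. Peaks and windows are not replicates of a condition, so other comparisons are descriptions.

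The windows, the lists of named windows and the tests were chosen with earlier results of these data known. Named were the 10 windows with most wild-type peaks, windows with regular spacing, the 10 regions of highest lowest fold among those called in all 4 H1 lists (1 per window) and the 5 NuMA regions of highest lower fold. Other windows were named after their values were seen. No sequence is printed, because the gene tables used here are of another build. Spacing and recovery were tested on simulated data. Software was Python 3.11.15, pandas 2.3.3, scipy 1.17.1, numpy 2.4.6 and matplotlib 3.10.9.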

Additional observations from a re-analysis of the deposited data

How the results depend on the processing

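Of 96 cases, each a result recomputed under 1 changed choice, 51 left the result in place by count, spread or direction, 42 moved it and 3 turned its sign; comparisons of 2 against 2 libraries could not pass 0.05 under any setting, and the cause was not tested where a value moved. The depleted density ratio of 7.39 was 5.02 with at least 6 peaks per wild-type list (78 windows), 9.22 with at least 10 (11 windows), 4.46 with low background alone, and 4.66 to 8.44 with 1 library left out (4.66 without wild-type replicate 1). The share kept (74.6%) was 67.7% with at least 6 peaks (58.1% outside), 84.4% in lists of equal length (72.5% outside), 59.7% at low background (57.1% outside), 81.0% in NuMA-poor and 65.5% in NuMA-rich windows, and 41.1% to 66.2% with 1 library left out, above the outside share each time (31.3% to 49.1%). The lists of equal length held the 1480 peaks of highest fold of each H1 list. This left 56 and 53 wild-type peaks in the dense windows, so 84.4% was 27 of 32 shared regions. The low-background and NuMA alternatives were chosen after seeing the data. The C-terminal NuMA density ratio (2.43) was 3.17 and 3.21 with at least 6 and 10 peaks, 3.53 with windows starting 0.5 Mb later and 4.66 at low background, and the N-terminal one (2.34) was 2.96, 2.70, 3.22 and 4.07. H1 peaks at NuMA regions in wild type (15.2%) came to 18.2% and 16.2% with at least 6 and 10 peaks, 16.5% on the shifted grid, 16.8% with −log10 q of at least 5, 16.7% without the densest window, 5.62% at 50% reciprocal overlap, 9.25% for summits within 200 bp and 24.1% with either antibody. After depletion (13.1%) they came to 17.8% with at least 6 peaks, 3.66%, 5.49% and 23.1% for the last 3 settings. Windows with regular spacing (1) were 0 without the densest window, 6 with at least 3 gaps and 0 by peak starts. Windows lower after depletion (7) were 19 with at least 6 peaks, 3 with at least 10 and 3 on the shifted grid. Those higher (11) were 22, 5 and, at low background, 1. The fold difference (0.011) turned to −0.0035 with −log10 q of at least 5 and −0.073 in lists of equal length, and was 0.0064 to 0.047 with 1 library left out. The width difference (0.068) turned to −0.012 with −log10 q of at least 5 (exact permutation p = 1 in all 3) and was 0.041 to 0.097 with 1 library left out.

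With the replicate number as a replicate block the fold difference was 0.011 and the width difference 0.068 (exact sign-flip permutation p = 0.5, the smallest that 2 pairs allow). Deviations of same-numbered libraries correlated at −0.020 over 1875 windows. Outside the dense windows the H1 lists held only 0.587 to 2.28 peaks per window, so counting noise is large. The value therefore cannot show whether the numbers pair the libraries. The shorter lists after depletion, and the lower depth read from them, may limit which H1 regions could be called there.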

Other observations

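The window at 51 to 52 Mb on chromosome 11, which missed the wild-type threshold, held 7 H1 peaks in each wild-type list and 6 and 7 after depletion. It had 1 NuMA peak with the C-terminal and 0 with the N-terminal antibody. It was the only window with at least 6 peaks in each depleted list that was not among the 26.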
